A study of Mus musculus with 141 samples.

Results

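The circadian clock genes described here were 10 genes of the core clock and its direct output, Arntl, Npas2, Per1, Per2, Per3, Cry1, Nr1d1, Nr1d2, Dbp and Ciart, taken by symbol from 36558 genes in the tables. All 10 passed the filter on low counts in the sex comparison. RNA came from iWAT, the subcutaneous fat depot of the groin, of mice of the Hybrid Mouse Diversity Panel, a set of inbred and recombinant inbred strains. All mice, female and male, took a high-fat, high-sucrose diet from 8 weeks of age for 8 weeks and were fasted for 4 h before collection. They were housed with 14 h of light and 10 h of darkness, with lights on at 6 and off at 20 on the 24-hour clock. The hour at which each mouse was collected is not given in the sources used here. There were 67 female and 74 male libraries of 82 strains, 1 library per strain and sex by the labels, and 59 strains had both. The study's methods speak of several samples per sex for some strains, and whether a library here holds RNA of more than a single mouse is not given in the sources used here. By strain name the female and male libraries fell into 21 and 23 of classical inbred strains, 23 and 22 of BXD lines ending in RwwJ, 9 and 12 of BXD lines ending in TyJ, 9 and 11 of AXB and BXA lines, 3 and 3 of CXB lines and 2 and 3 of BXH lines. By its name, BXD24/TyJ-Cep290<rd16>/J carries the rd16 allele of Cep290, and AXB19a/PgnJ and AXB19b/PgnJ share the name of AXB19/PgnJ. All mice took the same diet, so these comparisons hold no chow group.

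The clock is a feedback loop of transcription that runs in most cells of the body. The protein products of Arntl (also called Bmal1) and of Clock or Npas2 bind E-boxes and switch on the Per and Cry genes, whose proteins then shut the activators off. A second loop runs through Nr1d1 and Nr1d2 (REV-ERB alpha and beta), nuclear receptors that repress Arntl and Npas2. Dbp, a PAR bZIP factor that binds D-boxes, is an output driven by E-boxes, and Ciart (also called Chrono) represses the activators. In tissues sampled around the clock, Arntl and Npas2 peak at nearly the opposite phase to Nr1d1, Dbp and the Per genes, and adipose tissue carries such a clock.

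Promoters are shown because the loop is read through short DNA elements. RefSeq start-site sequences (GRCm38.p6) matched 9 of the 10 genes, with 11 start sites; Per2 is named only. In the 250 bases before each start, on both strands, the E-box CACGTG was found before 3 of these 9 genes (Ciart, Cry1 and Per1). By start site this was 3 of 11, against 6.02% of 32851 start sites of all genes. The related letters CACGTT were found for Cry1 and Nr1d1 (2 of 11 start sites, against 3.85% of all). The D-box TTATGTAA was found for Per3 alone (1 of 11 start sites, against 0.819% of all). The D-box form TTACGTAA, the letters TAGGTCA, which REV-ERB proteins and their ROR opponents bind, and the cyclic AMP element TGACGTCA were found before none of the 9 within this window. The stretches that hold repeated or paired elements, and that of Nr1d1, read as follows, 5′ to 3′ on the gene's strand, with the elements in capitals. Bases within the annotated span of the same gene were left out, and transcripts of other genes were not checked. Ciart lies at chr3:95882252-95882478, minus strand, and holds 3 E-boxes. Per3 lies at chr4:151044666-151044915, minus strand, and holds 2 D-boxes. Cry1 lies at chr10:85185065-85185304, minus strand, and holds CACGTT (read as AACGTG) and an E-box. Nr1d1 lies at chr11:98775378-98775627, minus strand, and holds 1 such CACGTT.
Ciart: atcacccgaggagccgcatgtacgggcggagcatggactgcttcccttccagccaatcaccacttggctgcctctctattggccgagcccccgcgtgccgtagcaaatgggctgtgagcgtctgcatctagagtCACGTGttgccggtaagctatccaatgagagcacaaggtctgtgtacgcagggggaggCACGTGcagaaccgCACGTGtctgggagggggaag
Per3: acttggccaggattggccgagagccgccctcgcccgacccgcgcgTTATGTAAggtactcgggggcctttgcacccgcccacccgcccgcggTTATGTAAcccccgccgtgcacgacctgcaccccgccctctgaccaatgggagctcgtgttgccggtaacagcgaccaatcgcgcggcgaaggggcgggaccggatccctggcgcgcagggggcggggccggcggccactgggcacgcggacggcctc
Cry1: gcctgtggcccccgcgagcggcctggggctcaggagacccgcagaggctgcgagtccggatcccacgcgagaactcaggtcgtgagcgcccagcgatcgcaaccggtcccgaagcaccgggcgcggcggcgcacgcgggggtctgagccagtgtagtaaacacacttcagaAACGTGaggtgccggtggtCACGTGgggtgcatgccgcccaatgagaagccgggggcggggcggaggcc
Nr1d1: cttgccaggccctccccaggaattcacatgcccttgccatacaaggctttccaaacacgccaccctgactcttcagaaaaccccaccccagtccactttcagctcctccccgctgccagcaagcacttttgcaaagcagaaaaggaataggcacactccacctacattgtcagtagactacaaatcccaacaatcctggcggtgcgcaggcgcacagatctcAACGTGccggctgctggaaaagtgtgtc

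The genes lie on GRCm38 at chr7:113207465-113314126 (Arntl), chr1:39193731-39363236 (Npas2), chr11:69095217-69109960 (Per1), chr1:91415982-91459324 (Per2), chr4:151003652-151044665 (Per3), chr10:85131700-85185064 (Cry1), chr11:98767932-98775333 (Nr1d1), chr14:18204054-18239127 (Nr1d2), chr7:45705088-45710203 (Dbp) and chr3:95878503-95882251 (Ciart). Nr1d1 overlaps Thra on the other strand, Dbp overlaps Sphk2 on the other strand, Per3 overlaps Camta1 on the same strand, and Npas2 overlaps the predicted genes Gm20428 and Gm3617. Libraries were stranded, and whether strand was used in the counting is not given in the sources used here, so reads within these pairs are uncertain.

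Female libraries held 6269154 to 39543043 estimated counts, with a median of 29991452, and male libraries 11747373 to 78562648, with a median of 30770099. Adipoq, an adipocyte hormone, had at least 3 counts in every library and spanned 296 to 2859 CPM in female and 552 to 3270 CPM in male libraries. Marker lists of other cells had different medians in females and males, with wide, overlapping ranges and no test. The summed level of the 6 tested mammary epithelial genes ran from 0.690 through a median of 438 to 1620 CPM in females and from 0.246 through 2.17 to 444 CPM in males. That of 6 lymphocyte genes ran from 3.34 through 40.4 to 1069 CPM in females and from 2.61 through 14.2 to 860 CPM in males, that of 4 muscle genes from 2.84 through 15.4 to 9131 and from 2.89 through 20.2 to 1330 CPM, and that of 4 macrophage genes from 84.8 through 247 to 716 and from 86.1 through 335 to 884 CPM. Of the 7 mammary markers, Wap did not pass the filter. Among muscle genes, the medians in females and males were 12.1 and 17.6 CPM for Acta1 and 0.562 and 0.557 CPM for Ckm. They were 0.960 and 0.900 CPM for Tnnt3 and 1.16 and 1.18 CPM for Mylpf. In 3 libraries, females of BXD34/TyJ and BXD69/RwwJ and the male of NZW/LacJ, Y-linked genes went against the label. The library labelled BXD34/TyJ female was also the shallowest and had the highest share of mitochondrial counts, 29.9% of its total. In bulk tissue, fewer cells of a type and less RNA per cell cannot be told apart.

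Nr1d1 was the most abundant of the 10 clock genes and Ciart the least, and the order was nearly the same in both sexes. In females, Nr1d1 ran from 6.48 TPM through a median of 57.1 to 112.5 TPM over 67 libraries. In males it ran from 16.4 through 57.5 to 134.3 TPM over 74 libraries. Below it came Nr1d2, with medians of 38.3 and 32.9 TPM in females and males, and Dbp, with 31.6 and 26.2 TPM. A middle group held Per1 (medians 12.30 and 11.96 TPM), Per3 (10.96 and 10.38 TPM) and Arntl (10.3 and 11.6 TPM). Cry1 followed (5.55 and 5.56 TPM), then Per2 (4.14 and 3.99 TPM), Npas2 (2.48 and 2.15 TPM) and Ciart (1.70 and 1.76 TPM).

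Several neighbours in this order changed places from library to library. Per1 was above Per3 in 33 of 67 female libraries, and above Arntl in 39 of 74 male libraries. Nr1d2 was above Dbp in 38 of 67 and 48 of 74 libraries. Larger shares of libraries held the steps from Nr1d1 down to Nr1d2 (53 of 67 female and 69 of 74 male libraries), from Dbp down to Per1 (63 of 67 and 67 of 74) and from the middle group down to Cry1 (62 of 67 libraries for Arntl in females and 66 of 74 for Per3 in males). The library labelled BXD34/TyJ female held the lowest female value of Arntl, Per1, Per2, Cry1, Nr1d1, Nr1d2 and Dbp. Without the libraries against their label, the lowest female TPM rose from 0.161 to 1.36 for Per2, from 1.77 to 15.9 for Nr1d2 and from 3.15 to 6.83 for Dbp.

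**Figure D1:**
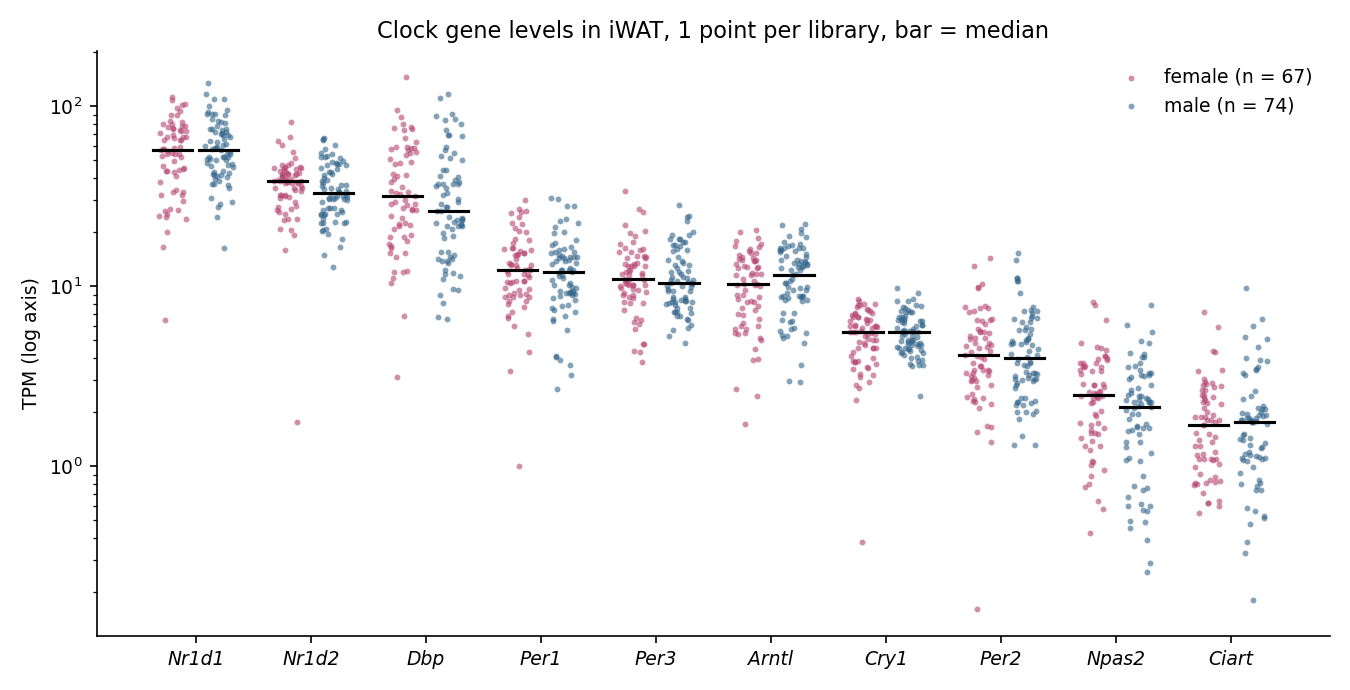
TPM on a log axis of each clock gene in iWAT, 1 point per library (67 female, 74 male) and a bar at the median. Nr1d1 sits highest, with medians of 57.1 and 57.5 TPM, and Dbp spans 3.15 to 145 TPM in females.

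By the SD of log2 CPM, Dbp varied most between female libraries, Npas2 and Dbp between male libraries, and Cry1 least in both sexes. The 90th percentile of Dbp was 5.44 times its 10th percentile in females and 6.31 times in males, while for Cry1 the ratios were 2.32 and 1.90 and for Nr1d2 2.02 and 2.49. Npas2 and Ciart also spread widely in males, with ratios of 7.01 and 6.15, at low levels. On the log2 CPM scale, scaled by trimmed means of M-values (TMM), the SD between libraries was 0.99 in females and 1.02 in males for Dbp, 0.76 and 1.06 for Npas2, and 0.31 and 0.28 for Cry1. Set among genes of similar mean level, the SD of Dbp stood at percentile 95.3 in females and 96.5 in males, and that of Cry1 at percentile 27.2 and 37.9. The SDs of Per1, Per2, Per3 and Nr1d1 stood between percentiles 85.1 and 92.9 in both sexes.

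Libraries at the ends of the range were at the ends for several clock genes at once. The LP/J female held the highest Dbp of all libraries, 145 TPM, with Per3 at 33.9, Ciart at 7.24 and Arntl at 2.69 TPM. The AXB19a/PgnJ male was highest among males, with Dbp at 116.6 TPM, Ciart at 9.75, Per3 at 28.4 and Arntl at 5.76 TPM. At the other end, the SM/J male held Dbp at 6.59 TPM, Per3 at 4.85, Ciart at 0.48 and Arntl at 16.8 TPM. The SM/J female was alike, with Dbp at 6.83, Per3 at 3.79, Ciart at 1.09 and Arntl at 13.99 TPM. Both mice of BXD51/RwwJ were high in the activators, with Arntl at 20.5 TPM and Npas2 at 8.21 TPM in the female, and 21.9 and 7.91 TPM in the male. These libraries were picked for their values and carry no test.

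The first comparison asked whether the clock genes differ between females and males across strains. In the 59 matched strains, 3 of the 10 genes passed the test, Npas2 higher in females and Cry1 and Nr1d1 lower, against 58.5% of the 16765 genes tested (4774 genes higher and 5032 lower in females). The median log2 fold change, female minus male, was -0.07 over the 10 genes and 0.01 over all genes tested. The differences between the sexes were smaller than the spread between libraries of a sex, in which strain and mouse cannot be told apart: the largest, that of Npas2, was 0.34, while the SD of Npas2 between libraries was 0.76 in females and 1.06 in males.

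Npas2, the partner of Arntl that can stand in for Clock, ran from 1.69 through a median of 7.97 to 24.2 CPM in females and from 0.844 through 6.57 to 22.6 CPM in males. It was higher in the female of 40 of 59 strains, with a log2 fold change of 0.34 ± 0.12 (SE, edgeR quasi-likelihood, adjusted p = 0.0131). Nr1d1 ran from 28.98 through 106.1 to 249 CPM in females and from 43.7 through 125 to 274 CPM in males. It was lower in the female of 37 strains, by 0.27 ± 0.10 on the log2 scale (a log2 fold change of -0.27, adjusted p = 0.0143). The summed level of 6 adipocyte genes also had different medians, 19302 CPM in females and 27178 CPM in males, with no test. So did the mammary, lymphocyte and macrophage lists given above. The part of these lists in the differences in Npas2, Nr1d1 and Cry1 was not tested. Cry1, a repressor of the activators, ran from 7.45 through 11.8 to 16.4 CPM in females and from 8.33 through 12.7 to 19.3 CPM in males. It was lower in the female of 39 strains, with a log2 fold change of -0.12 ± 0.05 (adjusted p = 0.0217). Without NZW/LacJ, whose male library went against its label, the fold changes of Npas2, Cry1 and Nr1d1 were 0.32, -0.11 and -0.29 (adjusted p = 0.0185, 0.0310 and 0.00855, edgeR). In each of these 3 genes the ranges of the sexes overlapped over most of their length.

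These calls depend in part on scaling. With libraries scaled by their totals, the median of all genes moved to 0.12 and the fold changes of Cry1 and Nr1d1 to -0.01 and -0.16 (adjusted p = 0.883 and 0.0840, edgeR), while relative to that median they were -0.13 and -0.28. Npas2 passed under totals as well, at 0.44 (adjusted p = 0.000896), as it did on log2(TPM + 1) with limma, at 0.23 (adjusted p = 0.0112). With strain left out of the edgeR fit, Npas2 (0.22, adjusted p = 0.245) and Nr1d1 (-0.20, adjusted p = 0.141) did not pass and Cry1 did (-0.12, adjusted p = 0.0343). On log2(TPM + 1), the limma fold changes of Cry1 and Nr1d1 were -0.02 and -0.18 (adjusted p = 0.806 and 0.0702). Among genes with at least 10 counts in every library, Cry1 had an adjusted p of 0.0656. By limma-voom, Npas2 had a fold change of 0.26 (adjusted p = 0.0352), and leaving out any 1 of 9 strains (129X1/SvJ, AXB5/PgnJ, BALB/cJ, BTBR T<+> tf/J, BXD85/RwwJ, BXH8/TyJ, CBA/J, CXB11/HiAJ and DBA/2J) moved its adjusted p to between 0.0502 and 0.0608. Nr1d2 passed under totals, at 0.16 (adjusted p = 0.00770). Of all genes tested, 61.5% passed with library totals, 50.1% with strain left out, 61.2% among genes with at least 10 counts in every library, 61.3% without NZW/LacJ, 57.9% by limma-voom and 49.1% on log2(TPM + 1), with the same share on log2(TPM + 0.1).

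The other 7 genes did not pass. Ciart came nearest, from 0.481 through 1.26 to 3.93 CPM in females and from 0.266 through 1.44 to 7.71 CPM in males, with a log2 fold change of -0.24 ± 0.11 (adjusted p = 0.0615, lower in the female of 38 strains). By limma-voom it passed with all strains (adjusted p = 0.0330) and did not without AXB19a/PgnJ (0.0787), NZW/LacJ (0.0621), KK/HlJ (0.0579), AXB5/PgnJ (0.0562) or AXB19b/PgnJ (0.0509). Arntl had a fold change of -0.14 ± 0.08 (adjusted p = 0.117), with medians of 19.3 CPM in females and 21.5 CPM in males. By limma-voom its adjusted p was 0.0665 with all strains, and without AXB5/PgnJ, BALB/cJ, AXB19a/PgnJ, BXD85/RwwJ or BXD55/RwwJ in turn it passed, at 0.0291 to 0.0499. For Dbp, the fold change was 0.05 ± 0.13 (adjusted p = 0.759), and 2 SE on either side reached from -0.21 to 0.31. For Per1 it was 0.02 ± 0.07, and the same interval reached from -0.13 to 0.16. Per2, Per3 and Nr1d2 had fold changes of -0.09, -0.06 and 0.05, with intervals from -0.27 to 0.10, from -0.22 to 0.10 and from -0.06 to 0.16. These intervals hold differences of the size called for Cry1.

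**Figure D2:**
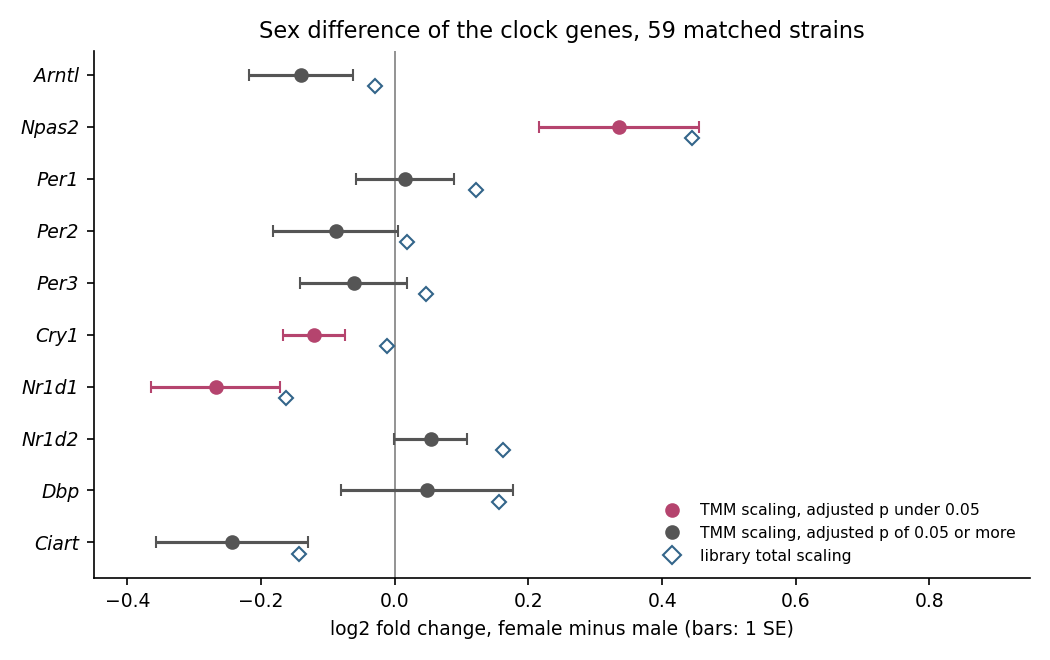
Log2 fold change, female minus male, of each clock gene in 59 matched strains, with bars of 1 SE (circles, TMM scaling) and the same value with library totals as scaling (diamonds). Npas2 lies at 0.34 and Nr1d1 at -0.27, and the diamonds lie to the right of the circles for all 10 genes.

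Among clock genes outside the 10, Bhlhe41 had the largest difference between the sexes. Of 23 further genes of the clock's loops, its kinases, ligases and outputs, 18 passed, 10 higher in females and 8 lower (78.3%, beside 58.5% of all genes tested). Bhlhe41 and Bhlhe40 (DEC2 and DEC1) are repressors that compete for E-boxes. Bhlhe41 averaged 79.5 ± 34.5 CPM over females against 32.7 ± 19.1 CPM over males (mean ± SD, n = 59), a log2 fold change of 1.35 ± 0.11 (SE, adjusted p = 1.91e-16), and was higher in the female of 56 strains. Bhlhe40 had a log2 fold change of 0.79 (adjusted p = 1.35e-08). Arntl2, a paralogue of Arntl, was higher by 0.82 (adjusted p = 1.77e-13). Beside these genes, the mammary list had medians of 438 CPM over females and 2.17 CPM over males the lymphocyte list 40.4 and 14.2 CPM and the macrophage list 247 and 335 CPM, and their part in the differences was not tested. Hlf, a PAR bZIP factor like Dbp, was also higher in females (0.32, adjusted p = 0.00321), as were Nono (0.24), Csnk1e (0.17), Wee1 (0.16), Fbxw11 (0.10) and Csnk1d (0.07).

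On the male side, Cry2, the second cryptochrome, had a fold change of -0.36 (adjusted p = 9.05e-06). Nampt, an enzyme of NAD synthesis under clock control, had -0.31 (adjusted p = 7.85e-08), Rora -0.29, Clock -0.26, Tef -0.21, Nfil3 -0.18 and Btrc -0.10, all past the threshold. Clock and Npas2, which can both pair with the protein of Arntl, thus lay on opposite sides: Clock averaged 82.8 ± 20.3 CPM over females against 99.2 ± 22.5 CPM over males (mean ± SD, n = 59). Usp2, Tipin, Timeless, Fbxl21 and Rorb did not pass. Usp2 passed by DESeq2, by limma-voom and under another scaling (RLE size factors). Rorb passed with library totals and on log2(TPM + 0.1). With library totals, 15 of the 23 passed, 11 higher and 4 lower. Tef, Nfil3 and Btrc did not pass with library totals, on log2(TPM + 1) or log2(TPM + 0.1), or with strain left out of the fit, and Wee1 did not with strain left out or with no filter on low counts.

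Whether the sex difference depends on the strain background was asked by comparing BXD lines (26 matched strains) with the others (33). No gene passed (0 of 16765, 0%), and 393 genes had an unadjusted p under 0.05. By limma-voom the counts were 0 and 422. Dbp had the largest interaction among the 10 genes, 0.44 ± 0.25 on the log2 scale (BXD minus others, adjusted p = 0.9997).

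Between strain families, 1 clock gene passed, in males. In females, 0 of the 10 passed the F test over 4 families, beside 25.2% of 18281 genes tested, and the same count was 0 by DESeq2 and limma-voom (22.9% and 6.55% of all genes). The lowest unadjusted p was that of Per2, 0.229. In males, 1 of 10 passed, Per1, beside 16.2% of 17631 genes. Male Per1 was lowest in BXD lines ending in TyJ, from 2.70 through a median of 8.71 to 14.3 TPM, and highest in AXB and BXA lines, from 7.35 through 15.9 to 30.9 TPM. On the log2 CPM scale the means were 4.92 ± 0.67 (SD, n = 12) in the former and 5.83 ± 0.52 (n = 11) in the latter, with 5.46 ± 0.59 in classical strains and 5.49 ± 0.55 in BXD lines ending in RwwJ (edgeR F test, adjusted p = 0.0372). The ranges overlapped. The call was lost by limma-voom (adjusted p = 0.0522, beside 9.63% of all genes called) and with all BXD lines as 1 family (adjusted p = 0.202, beside 9.26%; in females 10.9%). In females the lowest and the highest of these 4 families were the same for Per1, with means of 5.19 ± 0.81 in BXD TyJ lines and 5.76 ± 0.42 in AXB and BXA lines, without passing (adjusted p = 0.432).

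Of the 23 further clock genes, 4 passed between families in females, Rorb, Wee1 and Csnk1d among them, beside 25.2% of all genes tested. In males 1 passed (Csnk1d), beside 16.2% of all genes tested. For Rorb the library labelled BXD34/TyJ female held 414 CPM, and the next highest of all libraries 13.2 CPM (adjusted p = 2.20e-12 in females, edgeR). Without the libraries against their label, Rorb (adjusted p = 0.00447) and Wee1 (0.0125) passed in females and Csnk1d did not (0.108), beside 16.7% of all genes in females and 14.4% in males. In males, Csnk1d, a kinase that marks PER proteins for decay, was lowest in BXD lines ending in TyJ, at 6.60 ± 0.08 log2 CPM, and highest in classical strains, at 6.75 ± 0.11 (SD, adjusted p = 0.0125).

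Clock genes varied together across libraries. In females, 42 of the 45 pairs were correlated across libraries, 24 positively and 18 negatively, and in males 38 pairs, 20 positively and 18 negatively (permutation test of Pearson's r, adjusted over 45 pairs). Correlated genes were common in these libraries: the weakest pair called had an absolute r of 0.25 in females and 0.24 in males, and of all pairs of the 16862 genes, 48.1% in females and 45% in males had an r at least that far from 0, beside 93.3% and 84.4% of the clock gene pairs. The same 37 pairs passed in both sexes, each with the same sign. Arntl and Npas2 rose and fell together (r = 0.71 in females and 0.80 in males; Spearman's rho = 0.66 and 0.79). Both ran opposite to Dbp: for Arntl, r was -0.73 in females and -0.83 in males (rho = -0.73 and -0.83), and without the 2 libraries farthest from the median -0.70 and -0.81. For Npas2 and Dbp, r was -0.70 and -0.80. Each of these pairs had the smallest p that 100000 permutations can give, 1e-05 (adjusted p = 1.8e-05 in females and 1.73e-05 in males).

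Dbp, Nr1d2, Per3, Nr1d1, Per2 and Ciart were positive with each other, past the threshold in every pair but Nr1d1 with Ciart in males (r = 0.23, adjusted p = 0.0529). The tightest pair was Nr1d2 with Dbp (r = 0.82 in females and 0.91 in males; rho = 0.90 and 0.91). Per3 with Dbp reached 0.79 and 0.83, and Nr1d1 with Dbp 0.76 and 0.63. Nr1d1 and Nr1d2, the paralogous repressors, had r = 0.68 and 0.62. Per1 with Per2 reached 0.79 and 0.69, while Per1 with Dbp reached only 0.36 and 0.40. Arntl was opposite to both of its repressors, with r = -0.57 and -0.79 for Nr1d2 and -0.38 and -0.29 for Nr1d1. Without the 2 libraries farthest from the median of Arntl, the pair with Nr1d1 still passed in females (r = -0.33, adjusted p = 0.009, permutation test). In males it no longer did (r = -0.19, adjusted p = 0.129).

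Cry1 was negative with Per3 (r = -0.56 in females and -0.32 in males) and Dbp (-0.46 and -0.31), past the threshold in both sexes, and did not pass with Per1 or Per2 in either. It was positive with Arntl in females (r = 0.37, adjusted p = 0.00328) and did not pass in males (r = 0.20, adjusted p = 0.107), and the same held for Npas2 (r = 0.32 and 0.15, adjusted p = 0.0108 and 0.228). It was negative with Nr1d1 in both sexes (r = -0.57 and -0.49; adjusted p = 1.8e-05 and 3.33e-05). Its r with Ciart was -0.48 in females and 0.01 in males, the widest gap of the 45 pairs; the difference itself was not tested. The libraries against their label weigh on females: without them, all 45 female pairs passed, 24 positive and 21 negative. In another omission, Cry1 with Nr1d2 in females had r = -0.18 with all libraries and -0.61 without the 2 libraries farthest from the median of Cry1.

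**Figure D3:**
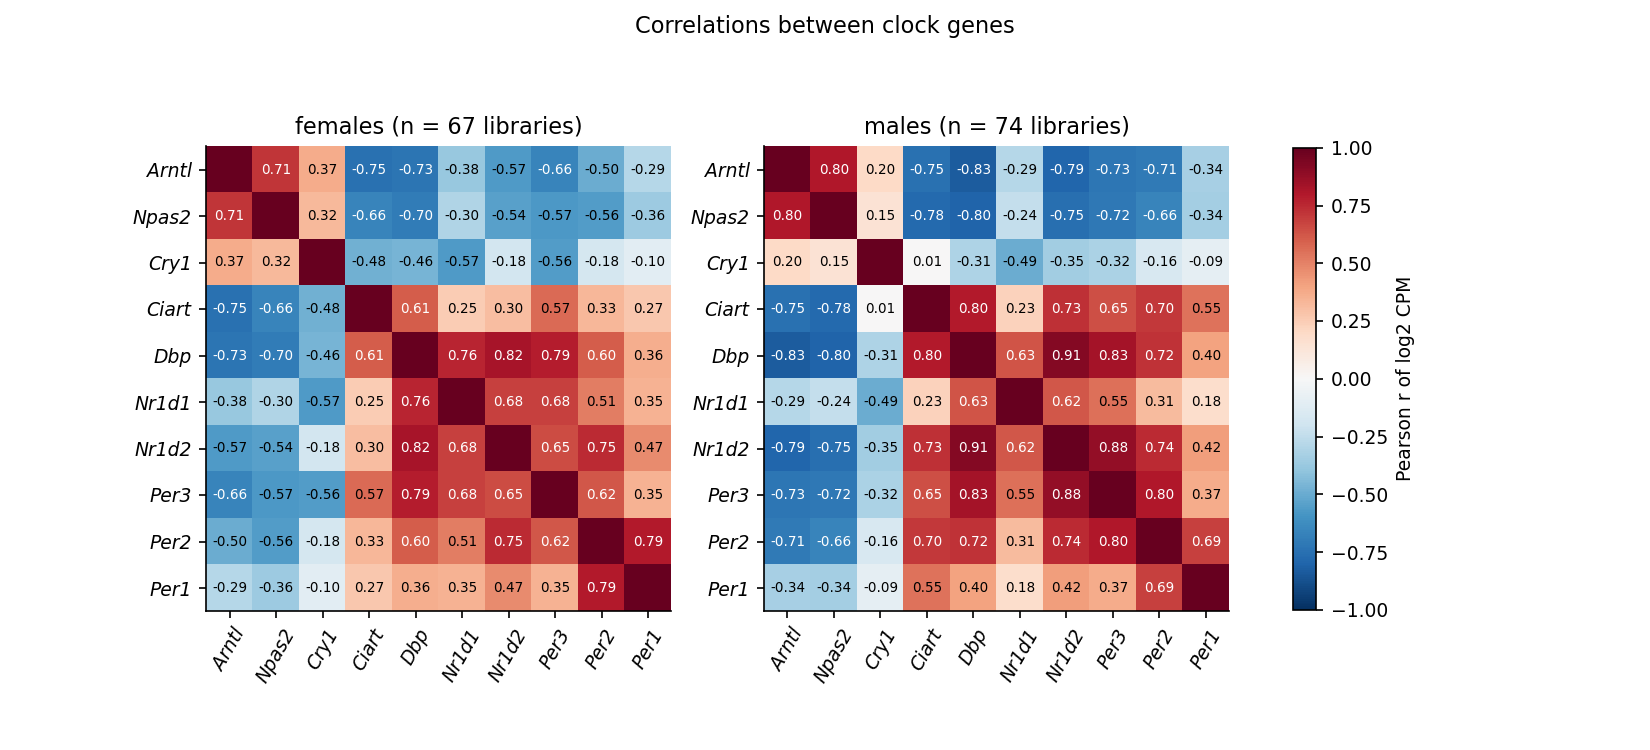
Pearson's r of log2 CPM for each pair of clock genes, females (67 libraries) on the left and males (74) on the right. Arntl and Npas2 form a positive block, r = 0.71 and 0.80, and are negative with Dbp, Nr1d2, Per3 and Ciart in both sexes.

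The scale matters for the negative pairs. On log2(TPM + 1), 6 female and 11 male pairs were negative past the threshold, against 18 and 18 on log2 CPM, and 25 pairs in each sex were positive. Of the pairs past the threshold on log2 CPM, 3 female pairs and 1 male pair had the other sign on log2(TPM + 1). TPM values were not scaled by TMM. When library total, mitochondrial share and the adipocyte, glucocorticoid and immediate early lists were held fixed by regression, r of Arntl with Dbp was -0.73 in females and -0.83 in males, and that of Nr1d2 with Dbp 0.87 and 0.92, given as a description. A first principal component of the 10 genes held 57.3% of their variance in females and 62.1% in males. Dbp had the highest loading in both (0.39 and 0.38), and Arntl (-0.34 and -0.35) and Npas2 (-0.32 and -0.34) the lowest.

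**Figure D4:**
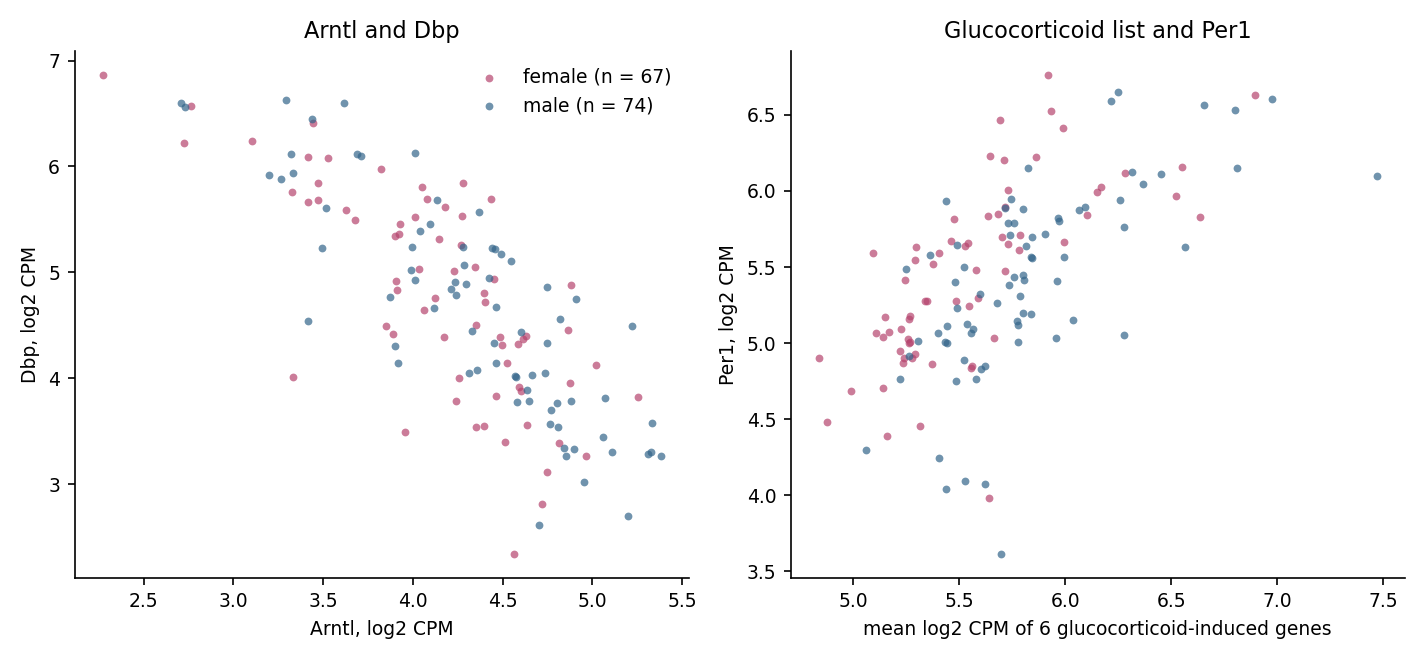
Left, log2 CPM of Dbp against Arntl, 1 point per library, females and males; right, log2 CPM of Per1 against the mean log2 CPM of 6 genes induced by glucocorticoids. Dbp falls as Arntl rises (r = -0.73 in 67 females and -0.83 in 74 males), and Per1 rises with the list (r = 0.70 and 0.65).

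Among genes outside the 10, those most like Dbp over all libraries, with each sex centred, were Tef (r = 0.87), Bhlhe40 (0.65), Hlf (0.65), Gpr146 (0.64) and Bhlhe41 (0.57), of 16852 genes compared. Tef and Hlf code for the PAR bZIP relatives of Dbp. Those most like Arntl were Dtx4 (0.57), Nfil3 (0.57), Fam124b (0.54), Dapk1 (0.51) and Avpr1a (0.51). Nfil3 binds the same D-boxes as Dbp and represses them, and its r with Dbp was -0.60. Tef had r = -0.71 with Arntl. Clock itself followed Arntl weakly, with r = 0.30. These values are descriptions over libraries that share strains, with no test.

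Per1 and Per2 moved with a list of 6 genes that glucocorticoids induce (Tsc22d3, Fkbp5, Zbtb16, Sgk1, Klf9 and Cebpd); both Per genes are themselves known to respond to glucocorticoids. Against the mean log2 CPM of the list, r of Per1 was 0.70 in females (rho = 0.77, adjusted p = 0.000267) and 0.65 in males (rho = 0.68, adjusted p = 0.0004), adjusted over 80 tests in each sex. Leaving out the 2 libraries farthest from the median of the list gave 0.69 and 0.64. For Per2, r was 0.55 in females and 0.50 in males. Of all genes, the 6 of the list included, 0.0356% in females and 0.101% in males had an r with the list at least as high as Per1, and 0.213% and 0.569% at least as high as Per2. Each of the 6 genes was positive with Per1 in both sexes, from 0.32 (Zbtb16 in males) to 0.59 (Cebpd in males), and with Per2, from 0.19 (Zbtb16 in males) to 0.59 (Klf9 in females). Klf9 in females had a higher r with Nr1d1 (0.69) and Per3 (0.64) than with Per1 (0.52). The summed level of the list ran from 220 to 933 CPM in females and from 279 to 1431 CPM in males. With the list and the other properties held fixed by the regression above, r of Per1 with Per2 was 0.60 in females and 0.55 in males.

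Of the 80 relations per sex with library properties, 11 passed in females and 2 in males. Over all genes and the same properties, 29.8% of relations in females and 10.7% in males had an r at least as far from 0 as the weakest of these. In males these were Per1 and Per2 with the glucocorticoid list. In females, Nr1d1 was also positive with the adipocyte list (r = 0.53, rho = 0.44) and negative with the lymphocyte list (r = -0.43, rho = -0.39). Per3 went the same way, with r = 0.44 (rho = 0.29) and -0.36 (rho = -0.33), and Cry1 the opposite way, with r = -0.40 (rho = -0.34) and 0.33 (rho = 0.27). Without the 2 libraries farthest from the median, the lymphocyte relations of Per3 (r = -0.29, adjusted p = 0.106) and Cry1 (r = 0.29, adjusted p = 0.104) no longer passed (permutation test). Other relations were gained by the same test: Cry1 with library total turned from r = 0.25 to -0.35 (adjusted p = 0.042). Nr1d1 passed with library total (r = 0.36, adjusted p = 0.042) and mitochondrial share (r = 0.37, adjusted p = 0.042). Cry1 passed with the immediate early list (r = 0.34, adjusted p = 0.0449). None of the 10 genes passed with the mammary or the muscle list in either sex. The relation of Nr1d2 with library total in females (r = 0.49, rho = 0.15) rested on the 2 libraries farthest from the median, without which r was 0.08. The same held for Per1 and Per2 with library total (r = 0.13 and 0.19 without them).

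The last question was whether a strain keeps its clock gene levels from its female to its male mouse. Over 59 strains, 9 of the 10 genes were positively correlated between the female and the male library (permutation test, adjusted over 10). The values were 0.53 for Npas2 (rho = 0.52, adjusted p = 0.00015), 0.52 for Dbp (rho = 0.51, adjusted p = 0.000167), 0.52 for Per1 (rho = 0.54, adjusted p = 0.00015), 0.50 for Nr1d2, 0.48 for Arntl, 0.46 for Per2, 0.44 for Per3, 0.44 for Ciart and 0.40 for Nr1d1. Leaving out the 2 strains farthest from the median kept r between 0.38 (Per2) and 0.58 (Npas2) in these 9 genes. Cry1 did not pass (r = 0.15, rho = 0.19, adjusted p = 0.262). For comparison, the median r over the 16862 genes with values was 0.30, and 29.2% of them had an r at least as high as the lowest of the 9, that of Nr1d1. The 9 genes stood between percentiles 70.8 (Nr1d1) and 87.9 (Npas2) of these genes and Cry1 at percentile 16.7. The median absolute difference between the 2 mice of a strain was 0.82 on the log2 scale for Dbp and 0.28 for Cry1. Within BXD lines (26 strains) r was 0.62 for Dbp and 0.66 for Npas2, and within the others (33 strains) 0.49 and 0.42. Per1 (0.45 within BXD and 0.57 within the others), Per2 (0.40 and 0.48) and Per3 (0.35 and 0.50) were ordered the other way. Per2 and Per3 did not pass within BXD lines (adjusted p = 0.0526 and 0.0904), and Ciart did not within the others (r = 0.34, adjusted p = 0.0611, permutation test). The differences between these sets of strains were not tested.

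**Figure D5:**
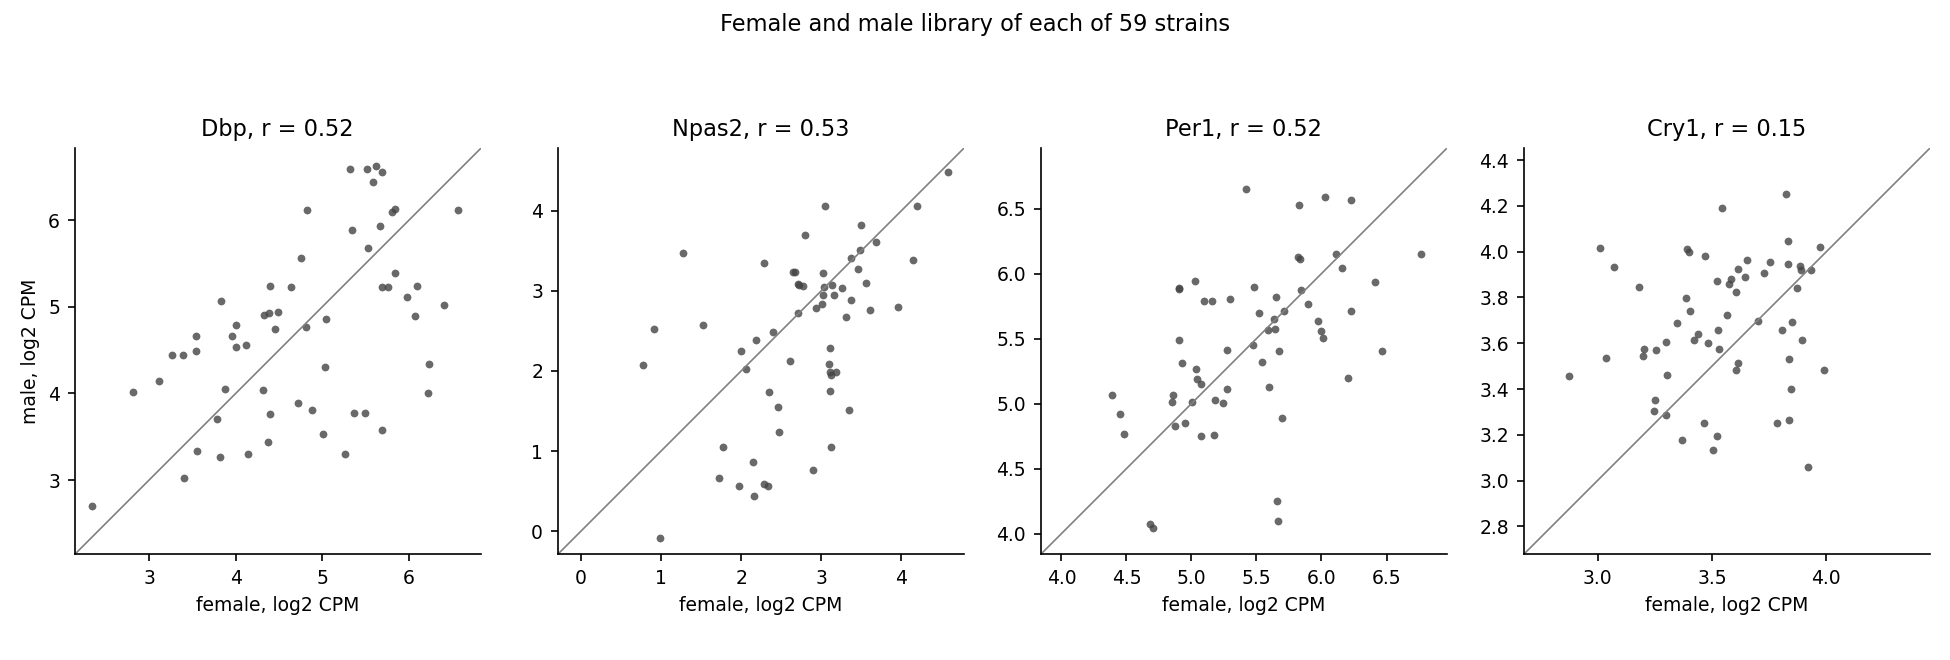
Log2 CPM in the male against the female library of each of 59 strains, with the line of equal values, for Dbp (r = 0.52), Npas2 (r = 0.53), Per1 (r = 0.52) and Cry1 (r = 0.15). High females tend to come with high males in the panels of Dbp, Npas2 and Per1, with wide scatter, and less so in that of Cry1.

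The labels also give each mouse a number, with no account of what it orders. Libraries were ordered by that number, and neighbours were adjacent in this order, with numbers that need not be consecutive. In 19 strains the female and male were neighbours, and in these r was 0.72 for Dbp, 0.89 for Npas2 and 0.60 for Per1. In the other 40 strains it was 0.41 for Dbp (adjusted p = 0.0350), 0.28 for Npas2 (adjusted p = 0.0976) and 0.47 for Per1 (adjusted p = 0.0210). Arntl (r = 0.32, adjusted p = 0.0686), Ciart (r = 0.27, adjusted p = 0.0976) and Cry1 (r = 0.08) did not pass in these 40 strains either (permutation test). Per2, Per3, Nr1d1 and Nr1d2 passed in them, with r from 0.34 to 0.40. In the 19 strains, Nr1d1 (r = 0.45, adjusted p = 0.0595) and Cry1 (r = 0.08) did not pass by the same test. The difference between these sets of strains was not tested. Across all 140 neighbouring pairs of libraries, with each sex centred, 5 genes were alike between neighbours: Arntl (r = 0.30, adjusted p = 0.0027), Npas2 (0.25), Per3 (0.24), Ciart (0.23) and Dbp (0.21) (permutation of the order, adjusted over 10). Of all genes, 6.89% had an r between neighbours at least as high as that of Dbp, and the median was 0.03. With the neighbours of 1 strain left out, 121 pairs remained and 0 genes passed; Arntl had r = 0.21 (unadjusted p = 0.0176, adjusted p = 0.0882) and Nr1d1 -0.23 (unadjusted p = 0.0122, adjusted p = 0.0882). Over all genes the median r of these 121 pairs was -0.01, Arntl stood at percentile 96.0 and Nr1d1 at percentile 1.8. Where the mice of a strain were neighbours, strain and mouse number cannot be told apart.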

How the data were processed

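Per the study's methods, stranded libraries of inguinal white adipose tissue (iWAT) RNA were quantified by the authors with kallisto 0.46.1 (version per the labels) against mouse transcripts (GRCm38) and brought to genes with tximport. Of 141 libraries the authors deposited estimated counts per gene and TPM (expression per length, scaled to the same sum in every library). Estimated counts were rounded. Genes were named with GENCODE M21.

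Levels between genes were read in TPM as deposited. Within a gene, CPM scaled by trimmed means of M-values (TMM) was used, as log2 CPM with a prior count of 2. Low genes were removed with filterByExpr. Sex (59 matched strains, strain as a term, which pairs the sexes), strain family (F test over 4 families) and the interaction of sex with BXD were tested with edgeR 4.0.16 quasi-likelihood, Benjamini-Hochberg adjusted over all genes, at a threshold of 0.05. The authors' model for sex had the same terms, fitted with limma. SE was the size of the log2 fold change divided by the square root of F. Correlations had 100000 two-sided permutations, adjusted within each family of tests. Tests were tried on simulated data. Alternatives were DESeq2 1.42.0, limma 3.58.1, other scalings, filters and samples. With 1 library per strain and sex, p-values measure the spread between strains and mice together.

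The 10 genes and all lists were chosen with earlier results of these data known. The text names the 10 genes, other clock genes past the threshold, and the 5 genes most like Arntl and Dbp, save a few not reported here.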

Additional observations from a re-analysis of the deposited data

Results flagged for a closer look

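In families of 4 to 10 libraries, the highest and lowest value of each clock gene was compared with the nearest other (Dixon's ratio, the gap divided by the range, on log2 CPM). Such a test flags about 1 group in 20 by chance, and 20 groups were tested, of which 3 passed. Families of that size were the female AXB and BXA and the female BXD TyJ libraries alone, so no male group was tested. All 3 were lowest values. Per1 was lowest in the AXB19b/PgnJ female among 9 AXB and BXA libraries, at 4.85 log2 CPM, with a ratio of 0.542, and the AXB19b/PgnJ male was at 5.01. Per3 was lowest in the BXD38/TyJ female among 9 BXD TyJ libraries, at 3.996 log2 CPM, with a ratio of 0.557. Nr1d2 was lowest in the library labelled BXD34/TyJ female among the same 9, at 4.31 log2 CPM, with a ratio of 0.611. That library goes against its label, held 6269154 counts, and had a log2 CPM of 6.02 for Per3 and 2.53 for Ciart.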

How the results depend on the processing

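Of the 10 clock genes, 3 differed between the sexes. The count was 1 (Cry1) with strain left out of the fit (no replicate block), 1 on log2(TPM + 1) and 1 on log2(TPM + 0.1). By limma-voom it was 4 with all strains, and 3 to 5 when each of 59 strains was left out in turn. In those omissions 4248 to 5030 genes were higher in females and 4875 to 5314 lower. With library totals 7512 genes were higher and 2806 lower, and with TPM 2878 (pseudocount 1) and 2855 (0.1) were lower. Fold changes that turned sign were never called: Per1 (-0.0022 with no filter), Per2 (0.018 with library totals) and Per3 (0.046 with totals, 0.026 with TPM + 1 and 0.027 with TPM + 0.1). Leaving out strains in turn with limma-voom gave log2 fold changes of -0.18 to -0.13 for Arntl, 0.23 to 0.30 for Npas2, -0.02 to 0.03 for Per1, -0.14 to -0.08 for Per2, -0.08 to -0.03 for Per3, -0.15 to -0.11 for Cry1, -0.33 to -0.26 for Nr1d1, 0.04 to 0.08 for Nr1d2, 0.04 to 0.11 for Dbp and -0.32 to -0.23 for Ciart. With all strains, limma-voom gave 0.26 for Npas2, beside 0.34 with edgeR. Per1 turned sign in 5 of 59 omissions (-0.015 without BXD43/RwwJ, -0.0097 without NZB/BlNJ, -0.0061 without BXD44/RwwJ and without C57BL/6J, and -0.0048 without MA/MyJ).

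Between families, the male count for the clock genes was 0 with limma-voom and 0 with BXD lines as 1 family. Over all genes, females had 1197 with limma-voom, 3061 without libraries against their label and 2000 with BXD lines as 1 family, and males 1697 with limma-voom and 1633 with BXD lines as 1 family. Negative pairs of clock genes were 6 (females) and 11 (males) with either pseudocount on TPM. With neighbours of 1 strain left out, 0 genes were alike between neighbouring mouse numbers. Relations with library properties came to 6 by Spearman's rho and 20 on log2(TPM + 1) in females, and 14 on log2(TPM + 1) in males. The cause of these changes was not tested. The split by mouse number was chosen after seeing the data. Ciart had few counts, and at the median library total 3 counts correspond to 0.0992 CPM.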
